A study of Mus musculus with 7 samples.

Results

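The 4 mouse metallothionein genes, Mt1, Mt2, Mt3 and Mt4, were followed over Iqgap1 knockout and wild-type tissue at day 0 and day 6 of topical 4OHT (4-hydroxytamoxifen, a ligand that activates tamoxifen-dependent fusion proteins). They were 4 of the 19937 genes measured, taken as a gene family, each by the probe set that names it alone and has the highest mean over the 7 arrays. Each gene had 1 such probe set. The family was chosen by its Mt4 values, which were among the largest falls from day 0 to day 6 over both genotypes. The day change of these 4 genes is therefore given as a description with no test, and only the genotype comparisons were tested on them. For Mt4 the genotype tests at day 0 and of the day change still draw on the values that chose it. Their p-values are therefore not independent of the choice.

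The knockout was measured on 2 arrays at each day; the wild type was measured on 1 array at day 0 and on 2 at day 6. All mice had a mixed C57BL/6 and 129 background, and the labels list topical 4OHT as the agent for every array, day 0 included. The labels give the tissue only as mouse tissue and give no age, no inducible protein, and no statement of whether replicates come from separate animals, so a p-value here reflects only how these arrays scatter, which may be technical. Values are log2 RMA expression values, that is, background-corrected, quantile-normalised intensities summarised per probe set. Levels of different probe sets cannot be set against each other, since probes differ in how strongly they bind.

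Metallothioneins are small proteins rich in cysteine that bind zinc and copper ions through their thiol groups. Mt1 and Mt2 are expressed in nearly all tissues and are induced by metal ions, glucocorticoids, oxidative stress and inflammatory signals; induction by metals runs through the zinc-sensing transcription factor Mtf1, which binds metal response elements in their promoters. Mt3 is best known from brain, and Mt4 from differentiating cells of stratified squamous epithelia such as skin and tongue.

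The genes lie next to each other on mouse chromosome 8 in the order Mt4, Mt3, Mt2, Mt1. Their upstream sequences are shown because the family members differed in how they moved although they are neighbours. All 4 genes were matched by symbol in the RefSeq promoter table of GRCm38.p6, and each line gives the 250 bases before the annotated start, 5′ to 3′ on the + strand. Capitals mark the core of the metal response element, TGCACNC or TGCGCNC on either strand; no 2 matches overlapped. The windows are chr8:94136954-94137203 for Mt4, chr8:94152357-94152606 for Mt3, chr8:94172368-94172617 for Mt2 and chr8:94178839-94179088 for Mt1.
Mt4: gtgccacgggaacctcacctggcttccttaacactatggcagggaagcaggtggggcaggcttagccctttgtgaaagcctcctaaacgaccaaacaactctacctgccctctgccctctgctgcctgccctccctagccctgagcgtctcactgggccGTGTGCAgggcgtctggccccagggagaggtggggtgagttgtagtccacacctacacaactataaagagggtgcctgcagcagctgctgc
Mt3: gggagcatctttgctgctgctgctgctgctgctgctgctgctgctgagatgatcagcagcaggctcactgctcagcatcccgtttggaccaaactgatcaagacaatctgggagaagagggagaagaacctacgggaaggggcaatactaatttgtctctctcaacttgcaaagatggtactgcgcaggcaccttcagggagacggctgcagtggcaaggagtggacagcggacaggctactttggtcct
Mt2: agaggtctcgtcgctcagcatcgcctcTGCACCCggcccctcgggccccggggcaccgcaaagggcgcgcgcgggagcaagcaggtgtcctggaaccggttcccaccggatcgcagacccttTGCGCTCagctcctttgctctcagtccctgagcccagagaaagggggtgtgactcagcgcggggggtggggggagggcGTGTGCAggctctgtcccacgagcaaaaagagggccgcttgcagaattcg
Mt1: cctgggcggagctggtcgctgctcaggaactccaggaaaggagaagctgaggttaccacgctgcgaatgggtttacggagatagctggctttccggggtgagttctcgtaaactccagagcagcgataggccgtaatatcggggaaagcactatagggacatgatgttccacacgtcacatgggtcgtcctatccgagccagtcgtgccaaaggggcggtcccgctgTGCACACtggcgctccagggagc

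Mt2 held 3 matches, at 223 to 217, 128 to 122 and 50 to 44 bases before the start, the last on the - strand. Mt1 held 1 match at 23 to 17 bases before the start, and Mt4 held 1 at 91 to 85 bases, on the - strand. Mt3 held 0 in this window. Of 32851 windows of the same length in the table, 21.4% held at least 1 match and 1.26% at least 3. These matches are letters in a window and do not show binding, and the 5′ ends used here are those of the annotation. Each window stops at the annotated start, and bases beyond it were not searched. The counts therefore do not give the number of elements that a gene has, and Mt1 and Mt2 should not be ranked by them.

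Facts of the series bear on what follows. Iqgap1 checked the labels, with 8.58 to 9.02 in the 4 knockout arrays and 9.94 to 10.59 in the 3 wild-type arrays. Basal keratinocyte genes (Krt5, Krt14 and 5 others) had list means of 10.46 to 11.53 in all 7 arrays. Replicate 1 of wild type at each day had signal for Xist (10.30 to 11.15), the RNA of the inactive X chromosome, and the other 5 arrays did not (3.55 to 4.03). The wild-type day 0 array also stood apart in hair genes: all 12 measured hair shaft and inner root sheath genes of a list of 13 were higher in it than in every other array, as were 20.3% of all genes, with a list mean of 11.81 against 5.01 to 6.35. It is the only wild-type array of that day, so genotype at day 0, Xist signal and hair gene level cannot be told apart.

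Mt4 varied most, with an SD of 2.51 over the 7 arrays, against 0.37 for Mt3, 0.27 for Mt1 and 0.14 for Mt2. In the wild-type day 0 array Mt4 stood at 12.39. In knockout at day 0 it was 8.39 and 9.15, and at day 6 the knockout had 6.00 and 5.81 and the wild type 5.83 and 5.93. All 4 day 6 arrays thus lay within a narrow band below the 3 day 0 arrays, and the day 0 arrays themselves spread widely by genotype. Whether the day 6 values lie above the background of the Mt4 probe set was not measured here, since detection calls were not used.

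**Figure D1:**
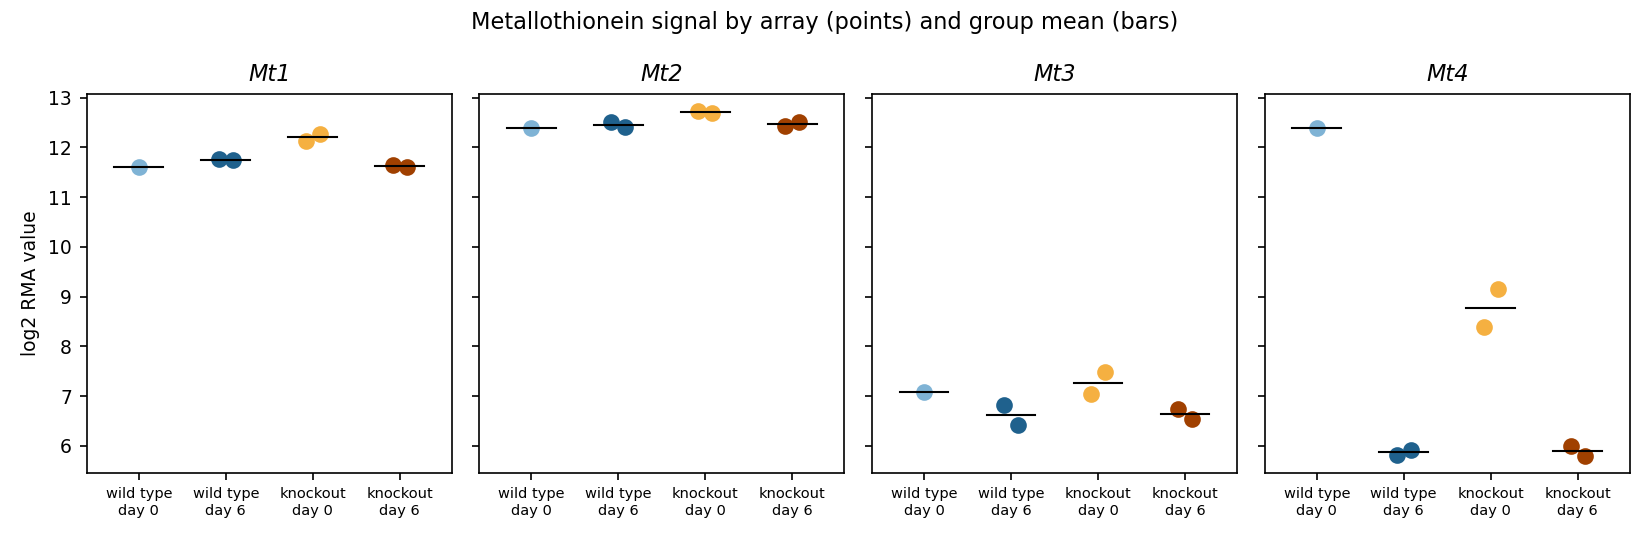
Log2 RMA values (vertical axis) of Mt1, Mt2, Mt3 and Mt4 in each array (points) by genotype and day, with group means as bars; heights should be compared within a gene only. Mt4 stands at 12.39 in the wild-type day 0 array, at 8.39 and 9.15 in knockout day 0 and between 5.81 and 6.00 at day 6, while Mt1 and Mt2 stay within 11.62 to 12.28 and 12.39 to 12.74.

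Mt4 was lower at day 6 than at day 0 in knockout, by a log2 difference of -2.87 ± 0.26 (SE, n = 2 and 2). Each SE given here comes from the limma fit, which pools the spread over all its arrays and draws it toward that of other genes. It is not the spread of the arrays compared alone. The knockout arrays had an Mt4 SD of 0.54 at day 0 and 0.13 at day 6. In wild type, against the single day 0 array, the log2 difference was -6.51; replicates 1 and 2 of day 6 gave -6.56 and -6.46. Array signal is compressed at both ends of the scale, so these differences hold on the RMA scale and are not given as folds. The estimate over both genotypes was -4.33 ± 0.71 (SE), which averages these unlike differences; without the wild-type day 0 array it was -2.87. In bulk tissue, fewer cells that express a gene and less RNA per cell cannot be told apart.

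Hair gene levels moved with Mt4 in wild type but not in knockout. The hair list mean went from 11.81 at day 0 to 6.35 and 5.12 at day 6 in wild type. In knockout it was 5.06 and 5.01 at day 0 and 5.33 and 5.18 at day 6. There 0 of its 12 measured genes were lower in both day 6 arrays than in both day 0 arrays, against 25.2% of all genes. Mt4 was lower in this way. The hair genes were already low in knockout at day 0 and had little room to fall. This count therefore cannot decide whether Mt4 and hair genes move together in knockout. Of all genes 9.66% were lower in every day 6 array than in every day 0 array. Skeletal muscle genes were so for 9 of 9 genes (list means 11.22 to 12.35 at day 0 and 8.67 to 9.46 at day 6). The same held for 5 of 6 measured adipocyte genes (10.16 to 11.01 and 6.29 to 7.34) and 4 of 7 sebaceous gland genes (9.78 to 10.34 and 5.59 to 8.81). It also held for 3 of 3 measured Schwann cell, 3 of 6 Langerhans cell and 3 of 7 fibroblast genes, and for 0 to 2 genes of every other marker list. The part of these in the Mt4 difference was not tested.

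**Figure D2:**
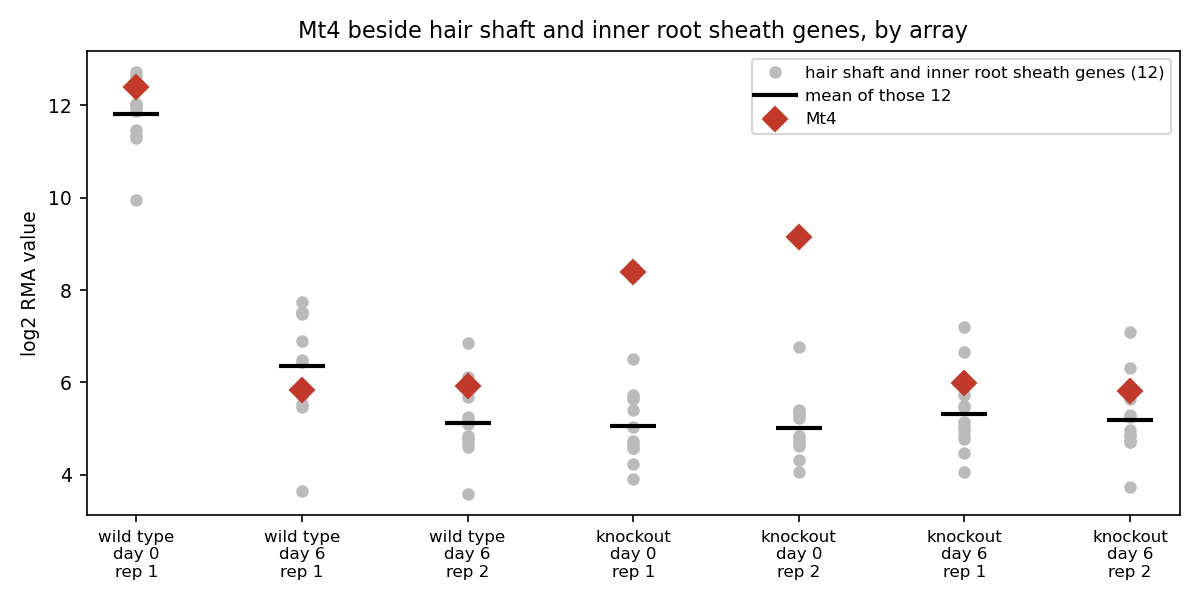
Log2 RMA values (vertical axis) of Mt4 (diamonds), of the 12 measured hair shaft and inner root sheath genes (grey points) and their mean (bars) in each of the 7 arrays; heights of different genes are not comparable. The hair genes are highest in the wild-type day 0 array, at a mean of 11.81, whereas Mt4 is also raised in the knockout day 0 arrays, at 8.39 and 9.15.

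Mt3 was lower at day 6 by a smaller amount. The knockout arrays had 7.04 and 7.50 at day 0 and 6.74 and 6.53 at day 6, and the wild-type arrays had 7.09, then 6.83 and 6.41. The day 6 arrays lay below the day 0 arrays without overlap, by 0.63 ± 0.23 in knockout and 0.57 ± 0.17 (SE) over both genotypes on the log2 scale. The 7 neuron and astrocyte genes of a marker list had list means of 4.96 to 5.44. Of them 1, the water channel gene Aqp4 (also expressed in muscle), was lower in every day 6 array than in every day 0 array. Tubb3, Rbfox3 and Snap25 were higher in every day 6 array than in every day 0 array, as were 11.9% of all genes. Tubb3 stood at 4.99 to 7.01 at day 0 and at 7.51 to 8.09 at day 6. Gfap, Slc1a2, Snap25, Syt1 and Rbfox3 stayed at 4.08 to 5.30, low on the scale, so little can be read from them.

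Mt1 and Mt2 lay high on the scale in every array and varied less than Mt3 and Mt4. For Mt1 the knockout arrays had 12.14 and 12.28 at day 0 and 11.65 and 11.62 at day 6, and the wild-type arrays had 11.62, then 11.77 and 11.75. The knockout day 0 arrays were the highest and did not overlap with the other 5. For Mt2 the knockout day 0 arrays were again the highest, with 12.74 and 12.70, then 12.44 and 12.51 in knockout, and 12.39, then 12.50 and 12.42 in wild type. The share of all genes with the knockout day 0 arrays highest was not counted, so nothing is read from this order. In knockout 25.2% of all genes were lower at day 6 without overlap. In the wild-type day 0 array 36% were lower than in both knockout day 0 arrays. In knockout the log2 day differences were -0.58 ± 0.15 for Mt1 and -0.25 ± 0.15 (SE) for Mt2. In wild type, against the single array, they were 0.14 and 0.070. The highest value in the whole table was 13.38, so both genes lie in the upper part of the scale, where array signal is compressed.

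Of the 4 genes, Mt3 and Mt4 had day 6 arrays all below the day 0 arrays over both genotypes, and 9.66% of all genes did (21.5% in either direction, 11.9% upwards). Within knockout all 4 were lower without overlap, as were 25.2% of all genes. This contrast chose Mt4, and nothing is read from these counts.

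At day 6 the 4 genes had similar values in knockout and wild type. The log2 difference, knockout minus wild type, was 0.025 ± 0.26 (SE, n = 2 and 2) for Mt4, with a 95% interval of -0.59 to 0.64. It was 0.013 for Mt3 (-0.53 to 0.56), 0.013 for Mt2 (-0.34 to 0.37) and -0.12 for Mt1 (-0.48 to 0.24). The limma adjusted p over all genes lay between 0.918 and 1.00. In limma 0 of 4 passed, as did 0 of 19937 genes (0%), with 1182 genes at an unadjusted p under 0.05. Without wild-type replicate 2 of day 6, 43 genes passed, and eBayes with trend and robust options called 1, the mast cell protease gene Mcpt2. Mt1 was lower in both knockout arrays than in both wild-type arrays, without overlap, which held in either direction for 31.6% of all genes (15.7% lower, 15.9% higher).

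At day 0, Mt4 was lower in the 2 knockout arrays than in the wild-type array, by a log2 difference of -3.62 ± 0.32 (SE) with a limma adjusted p of 0.00147. Over 13 other settings the adjusted p ranged from 0.000212 to 0.0317. Mt1 was higher in knockout by 0.59 ± 0.18 (SE) and did not pass (limma adjusted p = 0.0784); it passed with eBayes trend and robust options (0.0271) and after a second normalisation (0.0481), and the range over 13 settings was 0.0271 to 0.312. Mt2 (0.33, adjusted p = 0.277) and Mt3 (0.17, adjusted p = 0.723) did not pass. Thus 1 of 4 passed, beside 14.4% of all genes. The error of the single wild-type array is borrowed from the other groups. That array also entered the day change that chose Mt4, so the Mt4 p-value is not independent of the choice and nothing is read from the count. The gene with the smallest p here was Krtap26-1, a hair keratin-associated protein gene. Leaving out one knockout day 0 array lowered the count of all genes called from 2869 to 1239 (without replicate 1) or 1282 (without replicate 2). Leaving out either wild-type day 6 array raised it to 4328.

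The day change of Mt4 also differed between genotypes. It was smaller in knockout than in wild type by 3.64 ± 0.41 (SE) on the log2 scale, with a limma adjusted p of 0.00881, and between 0.00206 and 0.0483 over 12 other settings. The difference was not testable without the wild-type day 0 array, whose error is borrowed from the other groups. The same day change and the same array chose Mt4, so this p-value is not independent of the choice and supports nothing further. Mt1 differed by -0.71 ± 0.24 (SE), with day differences of -0.58 in knockout and 0.14 in wild type; this did not pass (adjusted p = 0.189). Mt2 (-0.32, adjusted p = 0.575) and Mt3 (-0.16, adjusted p = 0.886) did not pass either. Thus 1 of 4 passed, beside 3.1% of all genes; nothing is read from this count. The gene with the smallest p was Krt28, an inner root sheath keratin. The count of all genes called, 619, was 285 or 323 without knockout day 0 replicate 1 or 2, 143 or 237 without knockout day 6 replicate 1 or 2, and 1038 without wild-type day 6 replicate 1.

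Over both days together, knockout minus wild type was -1.43 ± 0.71 for Mt4, 0.16 ± 0.17 for Mt1, 0.14 ± 0.12 for Mt2 and 0.077 ± 0.17 (SE) for Mt3. The limma adjusted p lay between 0.314 and 0.823, and 0 of 4 passed, as did 0 of 19937 genes (0%), with 3729 at an unadjusted p under 0.05. Between genotypes 12.7% of all genes had arrays without overlap in either direction, and 0 of the 4 did. Without wild-type day 6 replicate 2, 836 genes passed. Without the wild-type day 0 array the Mt4 value was 0.025 and the Mt1 value -0.12.

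**Figure D3:**
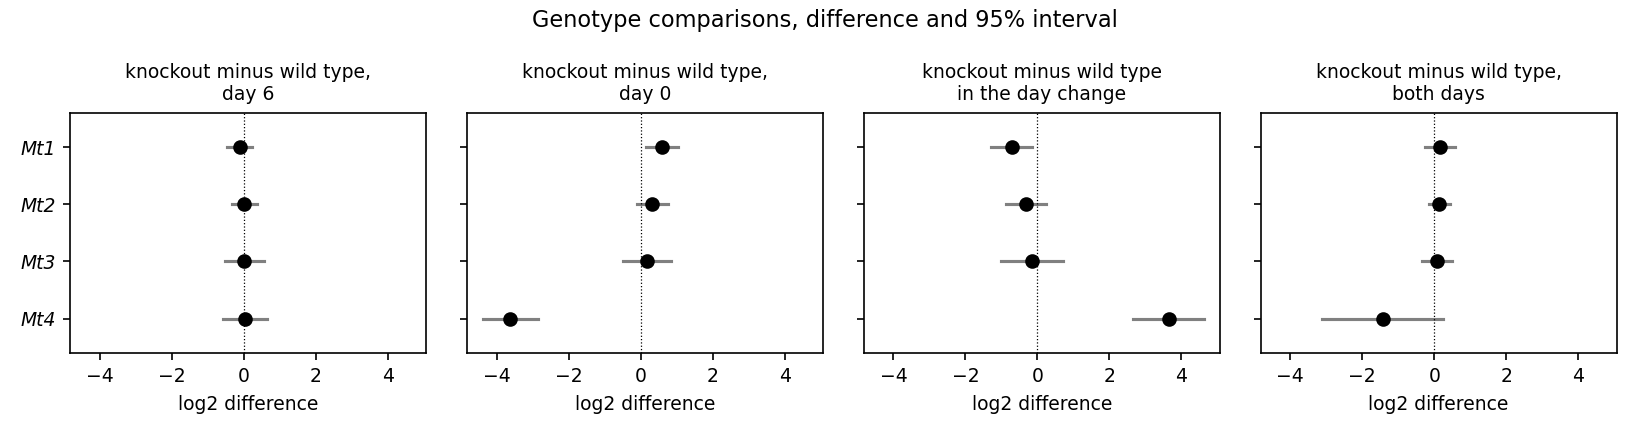
Log2 differences, knockout minus wild type (horizontal axis), of the 4 genes at day 6, at day 0, in the change from day 0 to day 6 and over both days; points are fitted values and lines 95% intervals. Only Mt4 at day 0 (-3.62) and in the day change (3.64) passed the adjusted threshold of 0.05, and both rest on the single wild-type day 0 array. Mt4 was chosen by its day change, so these calls are not independent of the choice. Of all genes 14.4% passed at day 0 and 3.1% in the day change.

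The genes on either side of the cluster varied less than Mt4 over the arrays. Bbs2, a gene of the primary cilium, and Ogfod1, a ribosomal protein hydroxylase gene, lie before Mt4, and the nuclear pore gene Nup93 and the kidney salt cotransporter gene Slc12a3 lie after Mt1. Their SDs over the 7 arrays were 0.29, 0.36, 0.49 and 0.20, against 2.51 for Mt4. Mt4 was chosen for its large change, so a smaller SD in its neighbours was to be foreseen. The SDs of the neighbours overlapped with those of the other members (0.37 for Mt3, 0.27 for Mt1 and 0.14 for Mt2). Of the neighbours only Nup93 varied more than Mt3, and all varied more than Mt2. Nup93 stood at 8.19, 8.56 and 8.22 at day 0 and at 8.63 to 9.32 at day 6, so all day 6 arrays lay above all day 0 arrays, where those of Mt4 lay below.

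**Figure D4:**
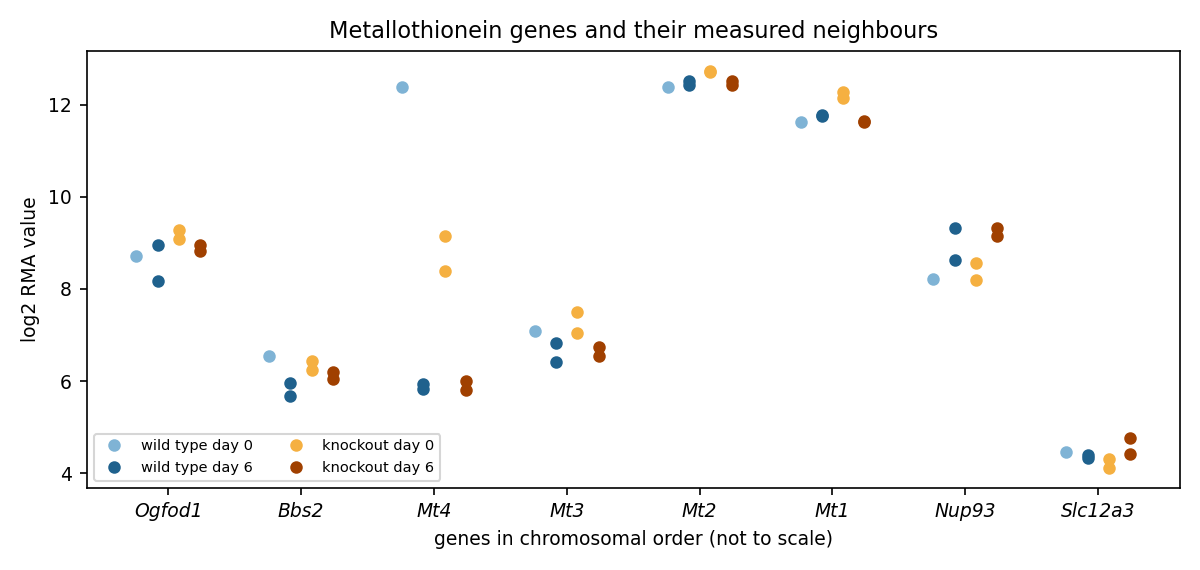
Log2 RMA values (vertical axis) of the 4 metallothionein genes and the 2 nearest measured protein-coding genes on each side, in chromosomal order and not to scale; points are arrays, coloured by group. Mt4 is spread over 5.81 to 12.39, whereas Bbs2, Ogfod1, Nup93 and Slc12a3 have SDs of 0.20 to 0.49.

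The members resembled each other in part. Over the 7 arrays Mt1 and Mt2 had a Pearson correlation of 0.91 (Spearman 0.71), while Mt1 and Mt4 had 0.21 (0.11). Without the wild-type day 0 array the latter was 0.98, since knockout day 0 was then the highest pair for both genes. Among genes with an SD of at least 0.5, the 3 most like Mt4 were Il1f10, an interleukin-1 family cytokine gene (r = 0.994), Hsd17b14, a steroid dehydrogenase gene (0.994), and Tcp11l2 (0.991). Il1f10 stood at 7.14 in wild type at day 0, at 4.90 and 5.62 in knockout at day 0 and at 3.81 to 4.15 at day 6. The 3 most like Mt1 were Trim47, the collagen prolyl hydroxylase gene P4ha1 and Mcoln2 (0.989 to 0.992). For Mt2 they were Neurl1a, Ppp1r12b and the transcription factor gene En1 (0.982 to 0.989), and for Mt3 the ligand gene Wnt2, the small heat shock protein gene Hspb1 and Timd4 (0.955 to 0.977). These correlations describe 7 arrays in 4 groups and carry no test.

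Mtf1, the metal-sensing activator of Mt1 and Mt2, had 8.65 and 8.85 at day 0 and 8.66 and 8.54 at day 6 in knockout, and 7.76, then 8.30 and 8.62 in wild type. The wild-type day 0 array was the lowest. Knockout was higher at day 0 by 1.00 ± 0.22 (SE, limma adjusted p = 0.0303), which did not pass without knockout day 0 replicate 1 (0.0850) or 2 (0.135), without either knockout day 6 array (0.0572), with the replicate block (0.0524) or with a term for Xist signal (0.243). The day difference over both genotypes was 0.19 ± 0.21 (SE) and did not pass (limma adjusted p = 0.636); without the wild-type day 0 array it was -0.16.

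Slc30a1, the zinc exporter of the plasma membrane and a known Mtf1 target, had its highest value in the array where Mt4 was highest. In that array 20.3% of all genes were higher than in every other array. Mt2 (12.39) had its lowest value there, as did Mt1 (11.62) by a very small margin. Slc30a1 stood at 10.33 in wild type at day 0, at 8.55 and 8.93 in knockout at day 0 and at 8.43 to 8.70 at day 6. It was lower in knockout at day 0 by 1.59 ± 0.22 on the log2 scale (SE, limma adjusted p = 0.00695), and its day change differed between genotypes by 1.78 ± 0.29 (adjusted p = 0.0267). The latter did not pass without knockout day 0 replicate 1 (0.0858), knockout day 6 replicate 1 (0.112) or knockout day 6 replicate 2 (0.0771), and the day 0 difference did not pass with a term for Xist signal (0.0813). In knockout its day difference was -0.070 ± 0.18 (SE; adjusted p = 0.841), where Mt4 was lower by 2.87 on the log2 scale.

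Zinc and copper transport genes were set beside the family from lists of their textbook members. These lists and those that follow were chosen with earlier results of these data known. Over both genotypes 11.5% of all genes passed for the day change (5.85% higher, 5.62% lower), and in knockout 16.3% did (7.24% and 9.07%). The median log2 day difference over all genes was 0.055 over both genotypes and 0.095 in knockout. Of 14 zinc importers (ZIP proteins, which bring zinc into the cytosol), 1 fell and 0 rose over both genotypes (median -0.013). This was Slc39a8, which stood at 9.36 to 10.90 at day 0 and 7.21 to 7.87 at day 6, a difference of -2.48 ± 0.37 (SE, limma adjusted p = 0.0106). In knockout 3 of 14 fell (median -0.18): Slc39a8, the stress-induced importer Slc39a14 (-1.45 ± 0.23, adjusted p = 0.00725) and Slc39a13. Slc39a11 (-0.29 ± 0.15 over both genotypes) did not pass. Without the wild-type day 0 array 3 importers passed over both genotypes.

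Of 10 zinc exporters (ZnT proteins), Slc30a7, an exporter of the secretory pathway, rose by 0.71 ± 0.17 (SE, limma adjusted p = 0.0449) over both genotypes and 0 fell (median 0.045). It also rose in knockout (0.88 ± 0.21), alone of the 10 (median 0.16). Slc30a4 was at -0.28 ± 0.19 over both genotypes and did not pass. Of 10 copper genes, the copper-transporting ATPase gene Atp7b (0.76 ± 0.18) and the transporter gene Slc31a2 (0.58 ± 0.14, SE) rose in both fits and 0 fell (medians 0.051 and 0.31), while Cox17, a copper chaperone gene, was at -0.43 ± 0.16 and did not pass. These calls were weak: without any 1 of the 4 knockout arrays, or without wild-type day 6 replicate 2, Slc30a7, Atp7b and Slc31a2 did not pass over both genotypes (adjusted p up to 0.162, 0.158 and 0.166). In knockout all 3 were likewise lost without any 1 of the 4 knockout arrays (up to 0.201, 0.202 and 0.2997). With lists of 10 to 14 genes these shares are not read as apart from those of all genes.

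Groups tied to other inducers of Mt1 and Mt2 moved in mixed directions. Of 16 measured glutathione and Nrf2 antioxidant genes (18 listed), 3 rose and 1 fell over both genotypes (median 0.022). Nqo1, a quinone reductase gene, rose by 2.53 ± 0.21, Gpx1, a glutathione peroxidase gene, by 0.78 ± 0.17, and the regulator gene Nfe2l2 also rose. Txnrd1, the thioredoxin reductase gene, fell by 1.52 on the log2 scale (SE 0.14, limma adjusted p = 0.00214). In knockout 2 rose and 5 fell, the latter being Hmox1, Srxn1, Txnrd1, Gpx4 and Cat, and Gpx1 did not pass (adjusted p = 0.0892). Over both genotypes Gpx1 was also lost without either knockout day 0 array, the wild-type day 0 array, knockout day 6 replicate 2 or either wild-type day 6 array (adjusted p up to 0.117). The 7 calls in knockout fell to 3 without either knockout day 0 array or knockout day 6 replicate 1, and to 4 without knockout day 6 replicate 2. The 4 calls over both genotypes fell to 2 without either knockout day 0 array, knockout day 6 replicate 2 or wild-type day 6 replicate 2, and were 7 without the wild-type day 0 array.

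Of 11 glucocorticoid-responsive genes, the stress gene Ddit4 rose over both genotypes (2.40 ± 0.17, SE, limma adjusted p = 0.000946) and 0 fell (median -0.41). In knockout Ddit4 rose, and Klf9 (-1.83 ± 0.21), Zbtb16 (-1.62 ± 0.20, SE), Fkbp5 and Tsc22d3 fell (median -0.69). These 4 genes were, in a comparison that shares the knockout day 0 arrays, also higher in knockout than in wild type at day 0, as was Per1, so 5 of 11 passed there and 0 were lower (median 1.03, against -0.093 over all genes, of which 8.53% were higher). Without knockout day 0 replicate 1, 2 of 11 passed there. For day in knockout, the count was 3 in place of 5 without knockout day 0 replicate 1 and without either knockout day 6 array. The list means were 10.01 and 9.72 in knockout at day 0, 9.04 in wild type at day 0 and 9.12 to 9.38 at day 6. Knockout day 0 arrays were thus the highest for this list, as they were for Mt1 and Mt2. The same held for the list means of interleukin-6, basal keratinocyte, fibroblast, skeletal muscle and sebaceous gland genes. Adipocyte, Langerhans cell, T cell and Schwann cell lists showed it too, and the remaining lists did not. The trait is thus not particular to the glucocorticoid list, and its part in the Mt1 and Mt2 values was not tested.

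Of 12 genes of interleukin-6 signalling and the acute phase, Saa3 (2.83 ± 0.58) rose, and Hp, the haptoglobin gene (-3.50 ± 0.61), Il6 (-2.82 ± 0.52, SE) and Cebpd fell over both genotypes (median -0.44). Their limma adjusted p lay at or below 0.0271 for the 3 with values. The calls did not hold without single arrays: Hp was lost without knockout day 0 replicate 1 (0.0677) or 2 (0.0524), Il6 without either knockout day 6 array or wild-type day 6 replicate 2 (up to 0.0666), and Saa3 without replicate 1 of any group but wild-type day 0, or wild-type day 6 replicate 2 (up to 0.0969). In knockout 1 rose and 7 fell (median -0.80). There Il6 was lost without any 1 day 6 array (up to 0.152) and Saa3 without replicate 1 of knockout at either day or either wild-type day 6 array (up to 0.222). The count of 8 in knockout fell to 2 without knockout day 0 replicate 1 or knockout day 6 replicate 1, to 3 without knockout day 6 replicate 2 and to 4 without knockout day 0 replicate 2. Over both genotypes the count of 4 was 1 or 2 without any 1 of the other 6 arrays and 8 without the wild-type day 0 array. At day 0, 5 of 12 were higher in knockout than in wild type and 0 were lower (median 0.58, with 8.53% of all genes higher): the receptor genes Il6ra, Il6st and Osmr, the signalling gene Stat3 and its inhibitor Socs3. Without knockout day 0 replicate 2, 1 of 12 passed.

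Late epidermal differentiation genes, markers of the cell layers for which Mt4 is best known, changed in both directions. Of 18 measured (21 listed), 2 rose and 2 fell over both genotypes (median 0.30). The keratin gene Krt77 stood at 12.02 to 12.89 at day 0 and 5.95 to 6.50 at day 6 (-6.27 ± 0.24) and fell, as did the filaggrin relative Flg2. The protease gene Casp14 (1.99 ± 0.21, limma adjusted p = 0.00356) and the transglutaminase gene Tgm1 (0.95 ± 0.14, SE, adjusted p = 0.0105) rose; without knockout day 0 replicate 1 Tgm1 did not pass (0.0536) and 2 of the list passed in place of 4. In knockout Tgm3 and Alox12b also rose (4 rose and 2 fell, median 0.31). There Tgm1 did not pass without knockout day 0 replicate 1 (0.0831) or knockout day 6 replicate 2 (0.0634). At day 0, Tgm3, a transglutaminase of hair and upper epidermis, was the only one of the 18 that passed as lower in knockout than in wild type (-4.75 ± 0.52, SE), the direction of Mt4, while Lor, Hrnr, Aloxe3 and Alox12b passed as higher (of all genes 5.86% passed as lower and 8.53% as higher).

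**Figure D5:**
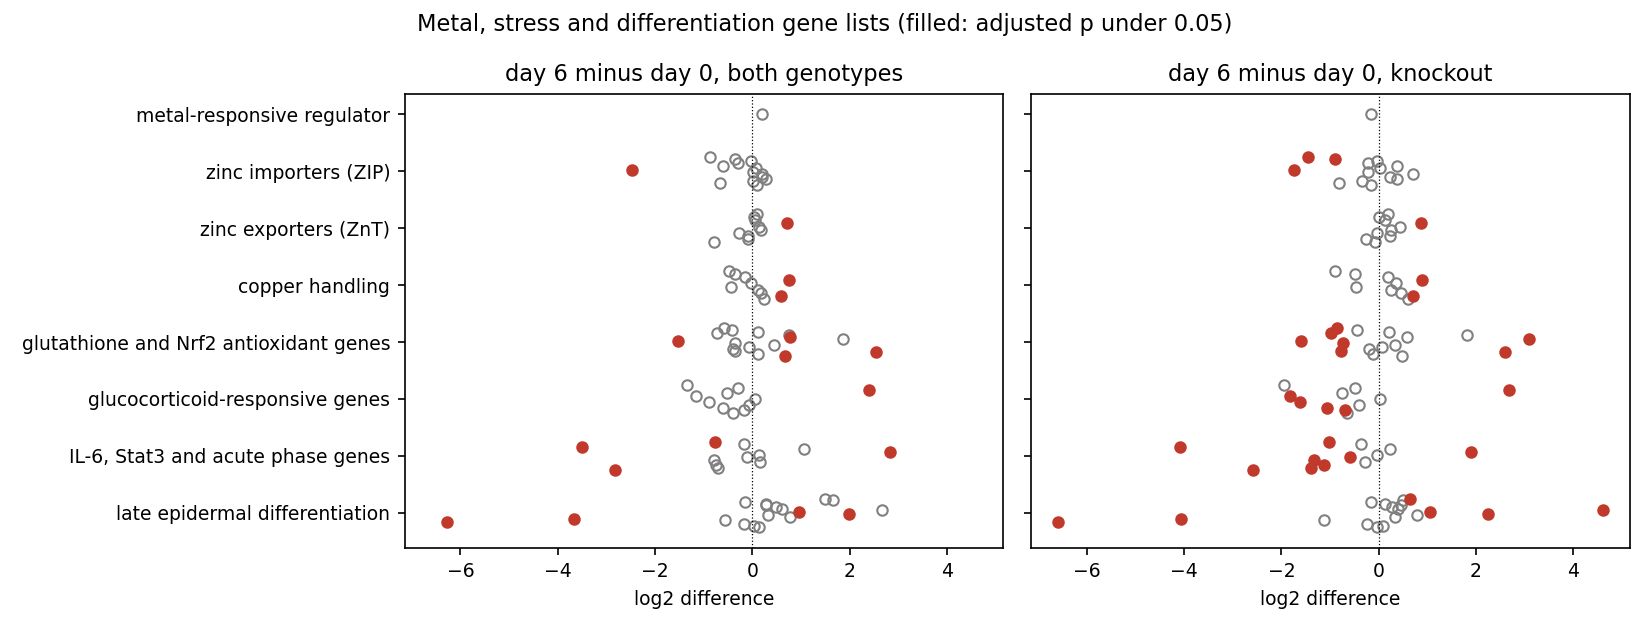
Log2 differences, day 6 minus day 0 (horizontal axis), of each gene (points) in 8 lists, over both genotypes and in knockout; filled points passed a limma adjusted p of 0.05. Most zinc and copper transport genes are open points near 0. The glucocorticoid and interleukin-6 lists have more filled points on the left in knockout (4 and 7) than over both genotypes (0 and 3). Of all genes 9.07% fell in knockout and 5.62% over both genotypes. Without the wild-type day 0 array these lists had 5 and 8 calls in either direction over both genotypes, as many as in knockout.

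Zinc transport genes also differed between genotypes at day 0. Of 10 zinc exporters, 4 were lower in knockout than in the wild-type array and 0 were higher: Slc30a1, Slc30a3, Slc30a4 and Slc30a6 (list median -0.33). Of 14 zinc importers, Slc39a6, Slc39a8 and Slc39a10 were lower, and Slc39a3, Slc39a13 and Slc39a14 were higher (median 0.017). Of 10 copper genes, Slc31a1, Atox1 and Commd1 were lower and 0 were higher (median -0.46). Without knockout day 0 replicate 1 or 2 the exporters passing fell from 4 to 1 in each case, the importers from 6 to 3 or 2, and the copper genes from 3 to 0 in each case. Without either knockout day 6 array 2 exporters and 0 copper genes passed. Over all genes 8.53% were higher and 5.86% lower in this comparison. Cell type markers also differed in that array, against a background of 36% of all genes that were lower in it than in both knockout arrays of that day. This held for 7 of 7 basal keratinocyte, 7 of 7 fibroblast, 6 of 6 endothelial, 9 of 9 skeletal muscle and 5 of 6 Langerhans cell genes. It held for 5 of 7 sebaceous gland, 4 of 6 adipocyte, 4 of 7 macrophage, 3 of 5 T cell and 2 of 3 Schwann cell genes. It held for 3 of 7 mast cell, 2 of 7 neutrophil, 1 of 2 erythrocyte, 1 of 7 neuron and astrocyte, and 0 of 12 hair genes. Their part in these differences was not tested. At day 6, 0 genes of the 8 lists passed between genotypes.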

How the data were processed

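RNA of 7 samples was hybridised to Affymetrix Mouse Gene 1.0 ST arrays. The submitters' processing notes name RMA and R 2.11.1 for the deposited log2 values; the log2 scale was read from the range of 2.37 to 13.38. Other RMA settings and array batches are not stated in these sources. RMA compresses low values, so folds of weak genes are understated. Of 34760 probe sets, 21640 named 1 gene, 1321 several (0 of them a metallothionein) and 11799 none here; the highest-mean probe set of each gene gave 19937 genes.

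Differences were fitted with limma 3.58.1 in R 4.3.3 (lmFit, eBayes), two-sided; p-values were adjusted over all 19937 genes (Benjamini-Hochberg), with 0.05 as the threshold. Comparisons over both days or both genotypes used an additive fit of genotype and day; the others used 1 fit of 4 group means. The procedure was tested on simulated data. The members and gene lists were chosen with earlier results of these data known. Named genes were the members, Mtf1, Slc30a1, Iqgap1, up to 3 genes of each list with the smallest p for day over both genotypes, the 3 genes most correlated with each member and 2 flanking genes on each side; other genes are named as the members of small counts, after their values were seen. Array number limits the precision. Alternatives were a low-value filter, other probe set and variance choices, a second normalisation, each array left out, a replicate block, and Xist signal as a term or left out.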

Additional observations from a re-analysis of the deposited data

Results flagged for a closer look

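The change of Mt4 from day 0 to day 6 differed between genotypes by a log2 value of 3.64 (knockout minus wild type, limma interaction term, adjusted p = 0.00881). Mt4 was lower at day 6 in 2 of 2 knockout arrays and in 2 of 2 wild-type arrays, and the difference lies in its day 0 level, 12.39 in the single wild-type array and 8.39 and 9.15 in knockout. The day change chose Mt4, and the wild-type day 0 group is 1 array whose error is borrowed from the other groups, so the p-value is not independent of the choice.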

How the results depend on the processing

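Day effects of Mt4 kept their direction in all settings run. Its day 0 and interaction calls held in all settings that could be fitted. The wild-type day 0 array could not be left out of these calls. Mt4 was chosen by its day change, so these settings reuse the values that chose it and add no independent support. After the second normalisation the sign turned for Mt3 over both days (-0.025) and at day 6 for Mt2 (-0.0092), Mt3 (-0.061) and Mt4 (-0.001), none of them called, and Mt1 passed at day 0 (0.61). Without the arrays with Xist signal Mt1 over both days was -0.11 and Mt4 at day 6 -0.025, 4027 genes passed for the day change over both genotypes, and the day differences of Mt1, Mt2 and Mt4 were -0.58, -0.25 and -2.87; Mtf1 was at -0.16. With a term for Xist signal Mt4 at day 6 was -0.025 and 682 genes passed at day 0. eBayes with trend and robust options called 1 gene at day 6 and Mt1 at day 0 (0.59). With only the day 0 arrays 4978 genes passed at day 0.

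With each array left out in turn, calls ranged from 0 to 836 for genotype over both days, 0 to 43 for genotype at day 6, 1239 to 4328 for genotype at day 0, 143 to 1038 for the interaction, 727 to 3251 for day over both genotypes and 1381 to 4027 for day in knockout. Over both days Mt1 ranged from -0.12 to 0.24, Mt3 from -0.011 to 0.20 and Mt4 from -1.84 to 0.025. At day 6 Mt2 ranged from -0.029 to 0.055, Mt3 from -0.19 to 0.22 and Mt4 from -0.069 to 0.12. Mt3 ranged from -0.057 to 0.40 at day 0 and from -0.39 to 0.070 in the interaction. The day difference over both genotypes ranged from -0.58 to -0.18 for Mt1, -0.25 to -0.068 for Mt2 and -4.88 to -2.87 for Mt4, and in knockout from -0.65 to -0.50 for Mt1 and -3.25 to -2.49 for Mt4. Mtf1 ranged from -0.16 to 0.33 over both genotypes, and in knockout Slc39a11 from -0.43 to 0.0057, Slc30a1 from -0.26 to 0.12 and Slc30a4 from -0.14 to 0.074. Causes were not tested.

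Whether replicate numbers pair the samples was not settled. The deviations of same-numbered arrays correlated at 0.086 (knockout day 0 with knockout day 6) and 0.037 (knockout day 0 with wild-type day 6). Knockout with wild type at day 6 gave 0.227. At day 6 the sebaceous gland list mean was 5.59 (knockout) and 6.45 (wild type) in replicate 1. It was 8.81 and 8.76 in replicate 2. The adipocyte list mean was 6.29 and 7.34 in replicate 1, and 7.32 and 6.75 in replicate 2. The cause was not tested. With the replicate block 0, 0, 2400, 613, 1745 and 3523 genes passed in the 6 comparisons in the order above, and the Mt4 adjusted p was 0.00247 at day 0 and 0.0113 for the interaction.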
